A study of Homo sapiens with 30 samples.

Results

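The enzymes that take tryptophan to kynurenine and on towards NAD, the kynurenine-sensing receptor AHR and the tryptophanyl-tRNA synthetase WARS1 were followed in 2 glioblastoma cell lines exposed to interferon gamma (IFN-γ). The 10 genes, IDO1, IDO2, TDO2, AFMID, KYNU, KMO, HAAO, QPRT, AHR and WARS1, were taken by symbol, and all 10 were found among the 61471 gene rows of the table of each line. The lines were U87-MG (U87) and U251-MG (U251), both labelled wild type. The labels give 5 groups of 3 biological replicates for each line. Untreated cells received no IFN-γ, and the labels date their collection to day 3. D3, D14 and D28 cells were exposed without a break for 3, 14 or 28 days, and D28WO cells were exposed for 14 days and then kept without IFN-γ until day 28. No untreated group is labelled at day 14 or 28. In contrasts of D14, D28 or D28WO with Untreated, exposure and longer time in culture therefore cannot be told apart. The protocol in the labels gives human IFN-γ at 1 µg/mL for every treated group, a dose that differs from the one in the study's methods. The methods describe replicates as independent culture preparations, say that the lines were not authenticated by STR profiling and place the untreated collection at the start of the experiment. They also describe cultures split at D14 between continued exposure and washout. Values are TPM, a unit of transcript abundance that corrects for transcript length and sets each library to the same total, and each line has a table normalized on its own, so the lines were not compared in a test. Of the U87 columns, 2 carry the same name and were not used, which left 2 libraries at D3, 2 at D14 and 3 in each other U87 group.

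Most dietary tryptophan that is not built into protein is broken down along the kynurenine pathway. IDO1, IDO2 and TDO2 open its indole ring, AFMID releases kynurenine, and KMO, KYNU, HAAO and QPRT carry the carbon on to the NAD precursor nicotinic acid mononucleotide. IFN-γ is the classic inducer of IDO1, and loss of tryptophan around the cell and the build-up of kynurenine, a ligand of AHR, are both known to restrain T cells. WARS1 charges tRNA with tryptophan and is itself a long-known IFN-γ-induced gene.

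GBP1, an interferon-induced guanylate-binding protein gene chosen after its values were seen, did not follow the labelled exposure in every group. In U87 at D14 it lay at 31.7 and 36.6 TPM against 31.3 to 39.6 TPM in Untreated. In D28WO, 14 days after the labelled withdrawal, it stood at 213 to 232 TPM in U87 and 460 to 471 TPM in U251. In U251 at D14 it lay at 141 to 156 TPM, between Untreated (44.4 to 49.9 TPM) and D3 (413 to 487 TPM). The differences of D28WO from D28 were -0.18 ± 0.09 in U87 and -0.04 ± 0.07 in U251 (log2 fold change ± SE, n = 3 per group, limma adjusted p = 0.204 and 0.720). The groups are called by their labels throughout. Whether the D14 and D28WO libraries carry the right labels was not tested, so each value for D14 or D28WO is that of the libraries so labelled, and what it says of exposure or withdrawal depends on those labels. The glioma markers held VIM at 1307 ± 132 TPM and SOX2 at 0 to 0.411 TPM in untreated U87, with GFAP at 2.33 to 6.90 TPM, against 1258 ± 46.3 TPM of GFAP and 159 ± 1.20 TPM of SOX2 in untreated U251 (SD, n = 3). Among 8 myeloid markers, AIF1 and TYROBP were listed at 0 in every U87 library and TYROBP in every U251 library, while CD68 and CSF1R supplied nearly all of the list: its summed level was 233 to 489 TPM in U87 libraries and 87.9 to 178 TPM in U251 libraries with them, and 0.480 to 3.54 TPM and 1.02 to 7.51 TPM without them. The 4 endothelial markers summed to 26.8 to 38.4 TPM in untreated U251, mostly CDH5, and to 2.45 to 3.74 TPM at D3, and CDH5 was called lower at D3, D14, D28 and D28WO. Of 6 tested glioma markers in U251, GFAP, S100B and NES were lower at D3 and in D28WO and GFAP and S100B at D28, GFAP by the most at D28 (-2.37 ± 0.09, adjusted p = 1.7e-10), which made 3, 3 and 2 of 6 at D3, D28WO and D28 beside 14.3, 7.45 and 15.2% of all genes. In U87, GFAP and S100B were higher at D28 (2 of 6, 7.38% of genes), and in D28WO (2 of 6, 14.9%) GFAP (1.45 ± 0.37, adjusted p = 0.00801) and OLIG2 (1.78 ± 0.37, adjusted p = 0.00217) were higher and CSF1R lower (-1.69 ± 0.22, adjusted p = 9.0e-05). The part of these shifts in the values of the members was not tested. The range of values was narrow, with no gene above 3344 TPM in U87 or 5443 TPM in U251 and 5.68 to 7.76% of a library in its 100 highest genes, and the sources used here do not say how TPM was computed. Fold changes are given on the log2(TPM + 1) scale, which understates the change of low genes.

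IDO1 and WARS1 were both higher than Untreated at D3, D28 and D28WO in both lines (the plot of members by library). In U87 at D3, IDO1 and WARS1 were the members called higher, 2 of the 8 that passed a mean of 0.5 TPM, where 6.23% of all genes were called. In RNA of whole cultures, a change in the number of expressing cells and a change in RNA per cell cannot be told apart. A call required a limma adjusted p under 0.05 and a log2 fold change over 1 in size. At D14 limma called 0 of the 8 (2 at an unadjusted p under 0.05, where 23% of genes had one, and 0 at an adjusted p under 0.05), against 2.1% of genes, at D28 the same 2 genes were called, against 7.38%, and in D28WO KYNU joined them, 3 of 8 against 14.9%. In U251 at D3, IDO1, KYNU, KMO and WARS1 were higher and QPRT lower, 5 of 8 members against 14.3% of genes. At D14, 3 of 8 were higher (IDO1, TDO2 and KMO), against 5.76%, and at D28, 5 of 8 (IDO1, IDO2, KYNU, KMO and WARS1), against 15.2%. In D28WO, IDO1 and WARS1 were higher and QPRT lower, 3 of 8 against 7.45%. HAAO in both lines, IDO2 in U87 and AHR in U251 did not pass the filter and were not tested. IDO2 in U251 passed it only with the D28 libraries counted, the group in which it was called. The median log2 fold change of all tested genes against Untreated was 0.15 to 0.25 in U87 and 0.02 to 0.16 in U251, so small rises in U87 lie near the shift of the whole table. By the adjusted p alone, 4, 0, 2 and 5 of the 8 members passed in U87 in the order D3, D14, D28 and D28WO, beside 16.7, 5.16, 23.8 and 42% of genes, and 5, 5, 7 and 5 of 8 in U251, beside 40.9, 21.2, 40.6 and 27.7%. The counts at D3 and D28 against Untreated were the same, 2 and 2 in U87 and 5 and 5 in U251, in fits that left out the D14 and D28WO libraries.

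**Figure D1:**
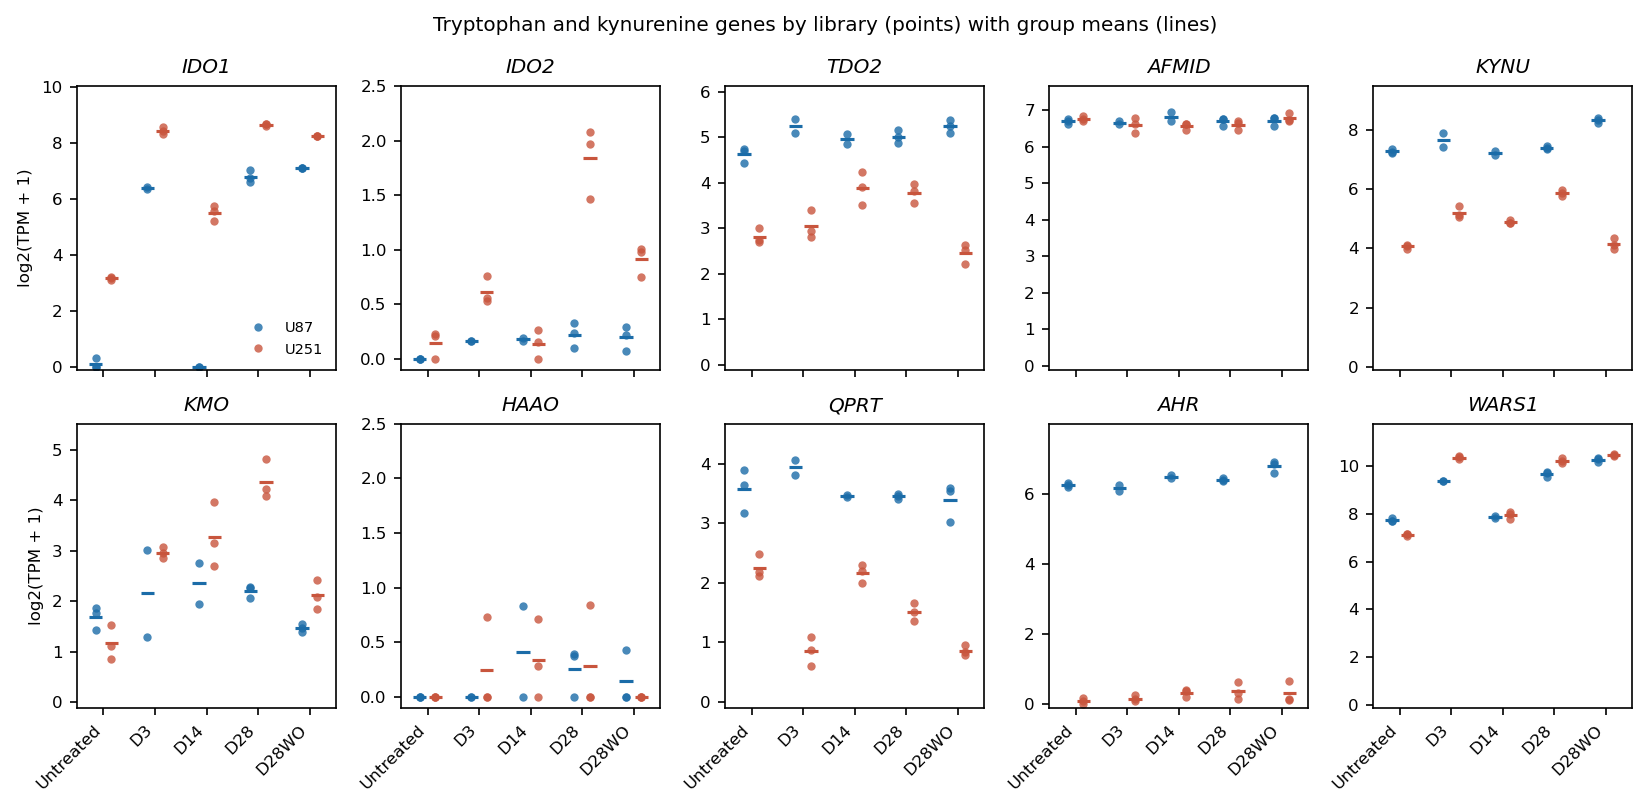
Each panel plots 1 gene as log2(TPM + 1) in every library, with U87 in blue and U251 in red, and short lines for group means. IDO1 and WARS1 were high at D3, D28 and D28WO in both lines, KYNU and KMO peaked at D28 in U251, and AHR lay between 65.8 and 120 TPM in U87 but at or under 0.572 TPM in U251.

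IDO1, the IFN-γ-inducible dioxygenase that starts the pathway, went from almost nothing to a well-expressed gene in U87. It was listed at 0, 0 and 0.239 TPM in the 3 Untreated libraries and at 0 in both D14 libraries. It stood at 81.3 and 85.9 TPM at D3, at 95.5, 107 and 130 TPM at D28, and at 135, 135 and 137 TPM in D28WO. The high and low groups were far apart, and no fold is given against values listed at 0. On the log2(TPM + 1) scale the difference from Untreated was 6.30 ± 0.15 at D3 (SE, adjusted p = 6.8e-10), -0.10 ± 0.15 at D14 (adjusted p = 0.746), 6.69 ± 0.14 at D28 (adjusted p = 9.3e-11) and 6.99 ± 0.14 in D28WO (adjusted p = 5.6e-11). D28WO did not differ from D28 past the threshold (0.30 ± 0.14, adjusted p = 0.164), although its 3 libraries all lay above the 3 at D28.

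In U251, IDO1 was already present without IFN-γ, at 7.55, 8.12 and 8.24 TPM. It reached 318, 341 and 380 TPM at D3, fell to 36.0, 46.7 and 52.6 TPM at D14, and came back to 389, 405 and 411 TPM at D28. D28WO held 299, 303 and 304 TPM. No group overlapped another, and the order from high to low was D28, D3, D28WO, D14 and Untreated. The group means were 43.4, 5.66, 50.4 and 37.9 times that of Untreated at D3, D14, D28 and D28WO. D14 was above Untreated by 2.35 ± 0.11 (log2, adjusted p = 3.3e-09) and below D3 by -2.93 ± 0.11 (adjusted p = 9.3e-10). D28WO was lower than D28 by -0.41 ± 0.11 (adjusted p = 0.0101), a difference that did not reach the fold limit. An antisense long non-coding RNA, ENSG00000254287, shares 120 exon bases with IDO1 and reached at most 2.00 TPM in U87 and 9.33 TPM in U251. The kit is not described as strand-specific, so reads of overlapping genes on opposite strands cannot be told apart.

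IDO2, the paralog of IDO1 with a much weaker activity towards tryptophan, moved only at low levels. In U87 no library passed 0.253 TPM. In U251 it lay between 0 and 0.172 TPM in Untreated, at 0.447, 0.469 and 0.694 TPM at D3 and between 0 and 0.203 TPM at D14. D28 held 1.76, 2.93 and 3.21 TPM, above every other group, and D28WO 0.681, 0.972 and 1.01 TPM. The rise at D28 was called (1.69 ± 0.23, adjusted p = 4.2e-05), as was D28 against D14 (1.70 ± 0.23, adjusted p = 1.1e-04). IDO2 in U251 passed the filter of a mean of 0.5 TPM only with its D28 libraries counted. The group called higher thus also admitted the gene to the test, and both calls and the member counts that include them depend on this. D28WO was 0.77 ± 0.23 above Untreated (adjusted p = 0.0208) and -0.93 ± 0.23 against D28 (adjusted p = 0.00709), neither past the fold limit.

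TDO2, the tryptophan dioxygenase best known from liver and from gliomas, had means above Untreated at D3, D14 and D28 in both lines. In D28WO its mean lay above Untreated in U87 and below it in U251, a difference between the lines that was not tested. In untreated U87 it stood at 20.5, 25.0 and 25.9 TPM, and all other groups lay above these values, with 33.1 and 41.4 TPM at D3, 27.9 and 32.4 TPM at D14, 28.4 to 34.5 TPM at D28 and 33.4 to 40.4 TPM in D28WO. The largest of these differences were 0.62 ± 0.15 at D3 (adjusted p = 0.0152) and 0.61 ± 0.13 in D28WO (adjusted p = 0.00294), below the fold limit. In U251, Untreated held 5.46, 5.67 and 6.999 TPM and D3 6.03, 6.72 and 9.59 TPM, which overlapped. TDO2 was called higher at D14, at 10.4, 13.9 and 17.8 TPM (1.07 ± 0.22, adjusted p = 0.00307), a call that was lost under quantile normalization (0.86), median-ratio scaling (0.99), array weights (0.98) and without D14 replicate 1 (0.90). At D28 it stood at 10.7 to 14.6 TPM (0.97 ± 0.22, adjusted p = 0.00266), and in D28WO at 3.67 to 5.19 TPM, below all Untreated libraries by -0.35 ± 0.22 (adjusted p = 0.263). The fall from D28 to D28WO was called (-1.32 ± 0.22, adjusted p = 4.6e-04) and missed the fold limit under quantile normalization (-0.94). The 4 hepatocyte markers summed to 0.987 to 8.05 TPM in U87 libraries and 1.95 to 24.9 TPM in U251 libraries, highest at D3 in U251. Among them ALB was called higher in U87 at D3, D28 and D28WO (means of 2.97, 3.26 and 4.26 TPM against 0.117 TPM, adjusted p = 0.0476, 0.0249 and 0.00377), groups in which TDO2 also lay above Untreated, and in U251 at D3 (16.1 against 2.33 TPM, adjusted p = 0.00133). In U87, ALB was 1 of 3 tested hepatocyte markers in these groups, beside 6.23, 7.38 and 14.9% of all genes called. APOA1 had a mean of 0.842 TPM in untreated U87, 0.381 TPM at D3, 1.07 TPM at D28 and 0.410 TPM in D28WO. In U251 its mean was 1.52 TPM in Untreated and 0.469 to 0.669 TPM in the other groups. The part of the hepatocyte markers in the TDO2 level was not tested.

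AFMID, the formamidase that turns N-formylkynurenine into kynurenine, was the steadiest member. Its group means ran from 100 to 113 TPM in U87 and from 93.9 to 109 TPM in U251. The changes against Untreated lay between -0.04 and 0.12 in U87 and between -0.20 and 0.02 in U251, with SEs of 0.09 to 0.10 (adjusted p = 0.188 to 0.962). In U87 each group overlapped Untreated, and in U251 the D14 libraries (86.9 to 97.8 TPM) lay below all 3 Untreated libraries (103 to 113 TPM).

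**Figure D2:**
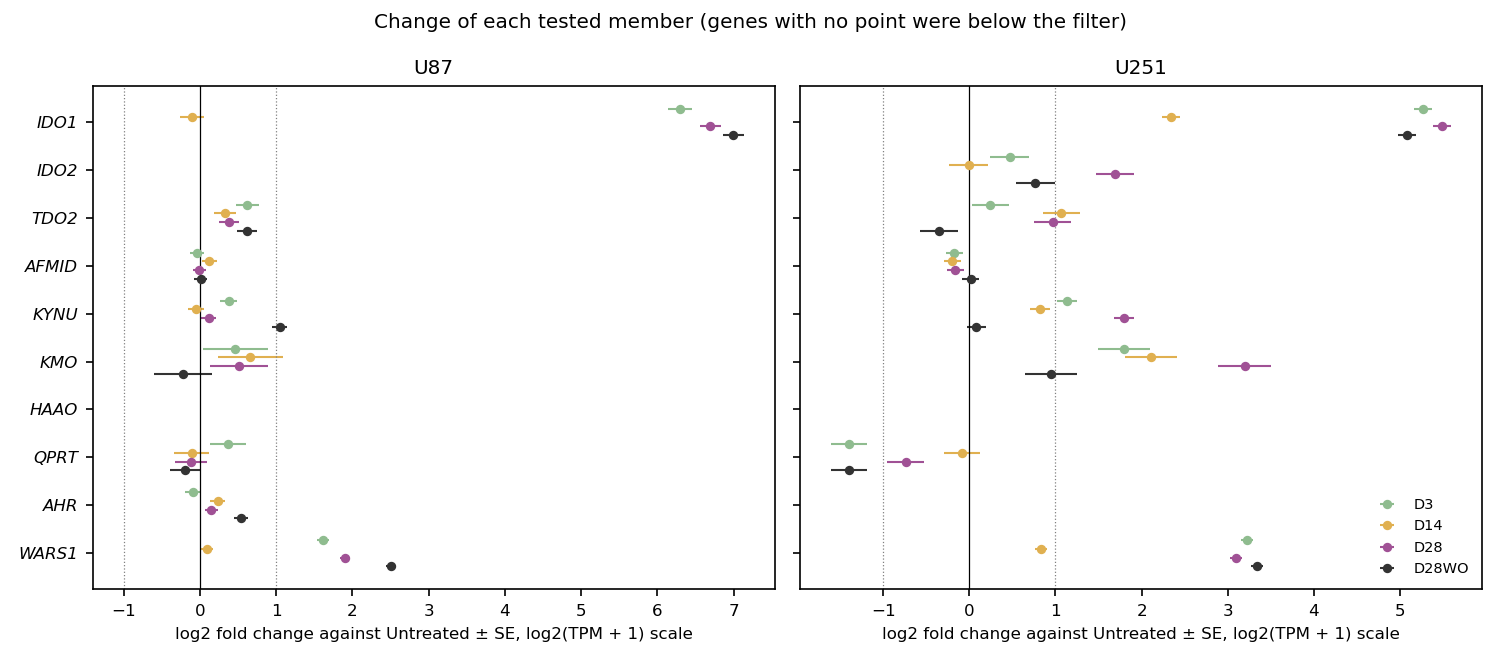
Points are log2 fold changes against Untreated on the log2(TPM + 1) scale with SE bars, for U87 on the left and U251 on the right, and dotted lines mark the fold limit of 1 in each direction. IDO1 lies above the other members in both lines at D3, D28 and D28WO, with WARS1 next except in U251 at D28, where KMO (3.20) and WARS1 (3.09) lie close together. The other members past the limits are KMO, KYNU, QPRT, IDO2 (D28) and TDO2 (D14) in U251 and KYNU in U87 D28WO.

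KYNU, the kynureninase that cleaves kynurenine and 3-hydroxykynurenine, was called against Untreated in D28WO in U87 and at D3 and D28 in U251. The RefSeq table of promoters (GRCh38.p14) holds 1 window for KYNU, of 250 bases before the start site and the bases after it. It is shown because, among the windows of the 8 members searched, it alone had more than 1 match to TTCNNNGAA, the form of the gamma-activated site (GAS). IDO1 and IDO2 were not searched. Capitals mark the matches, whose first bases lie 34 bases upstream of the start and 5 bases downstream of it (the last 30 bases of the window, without a match, are not printed).
KYNU window, chr2:142877414-142877683, plus strand: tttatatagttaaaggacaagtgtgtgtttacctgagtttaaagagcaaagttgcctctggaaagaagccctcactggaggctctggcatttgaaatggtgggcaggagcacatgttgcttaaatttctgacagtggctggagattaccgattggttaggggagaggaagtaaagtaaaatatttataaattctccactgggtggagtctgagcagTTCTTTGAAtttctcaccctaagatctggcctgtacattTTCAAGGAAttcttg
Over 35116 windows of the table, 7.66% hold a GAS match and 0.456% hold 2 or more. A match is a description of the letters and not evidence of binding.

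In U87, KYNU was abundant throughout, at 150, 154 and 164 TPM in Untreated, 174 and 237 TPM at D3, 144 and 156 TPM at D14 and 163, 168 and 176 TPM at D28. D28WO stood clear above the rest, at 306, 325 and 340 TPM, 2.08 times the Untreated mean. In the same libraries OLIG2 and GFAP were higher and CSF1R lower, as given above, and their part in the KYNU rise was not tested. The KYNU rise was called (1.05 ± 0.10, adjusted p = 9.4e-06), but it was 0.81 and missed the fold limit with median-ratio size factors. Against D28 the difference was 0.93 ± 0.10 (adjusted p = 1.5e-04). At D3 the 2 libraries lay above Untreated by 0.38 ± 0.11 (adjusted p = 0.0361).

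In U251, KYNU stood in Untreated at 14.9, 16.1 and 16.5 TPM. It rose to 32.3, 33.8 and 42.3 TPM at D3 (1.13 ± 0.11, adjusted p = 3.0e-06) and to 53.7, 57.2 and 61.7 TPM at D28 (1.80 ± 0.11, adjusted p = 2.9e-08). The D3 call missed the fold limit under quantile normalization (0.99). D14 held 28.0, 28.0 and 30.0 TPM, above Untreated by 0.82 ± 0.11 (adjusted p = 2.0e-04). In D28WO it lay at 14.95, 16.4 and 19.3 TPM, overlapping Untreated (0.08 ± 0.11, adjusted p = 0.662) and well under D28 (-1.72 ± 0.11, adjusted p = 2.2e-07). Thus D28WO was the highest KYNU group in U87 and, in U251, a group whose values overlapped those of untreated cells.

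KMO, the mitochondrial monooxygenase that makes 3-hydroxykynurenine, is best known from microglia and macrophages. In U251 it rose from 0.826, 1.17 and 1.90 TPM in Untreated to 6.30, 6.80 and 7.41 TPM at D3, 5.54, 7.95 and 14.8 TPM at D14 and 15.9, 17.6 and 27.2 TPM at D28. All 3 groups were called (1.80 ± 0.30, 2.11 ± 0.30 and 3.20 ± 0.30, adjusted p = 3.2e-04, 2.6e-04 and 1.7e-06), and the D28 mean was 15.6 times that of Untreated. D28WO fell back to 2.63, 3.27 and 4.34 TPM, below D28 by -2.25 ± 0.30 (adjusted p = 1.0e-04) and 0.95 ± 0.30 above Untreated (adjusted p = 0.0316). The D14 libraries were spread widely. The rise from D14 to D28 (1.09 ± 0.30, adjusted p = 0.0210) was not called under quantile normalization (0.96), in a fit of those 2 groups alone (1.09, adjusted p = 0.0683), or without D14 replicate 1 (1.03), D14 replicate 3 (0.80) or D28 replicate 1 (0.86). The fall from D14 to D28WO (-1.16 ± 0.30, adjusted p = 0.0118) was not called under quantile normalization (-0.95) or without D14 replicate 2 (-0.81) or D28WO replicate 3 (-1.03). In U87, KMO stayed between 1.46 and 7.09 TPM over all libraries and no contrast was called (adjusted p = 0.157 to 0.920).

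KMO shares 1691 exon bases with OPN3 on the opposite strand. OPN3 did not rise with it in U251, where it stood at 26.0 to 27.8 TPM in Untreated and 16.7 to 25.7 TPM at D28. In the same libraries the myeloid markers other than CD68 and CSF1R summed to 1.02 to 1.83 TPM in Untreated and 5.15 to 6.90 TPM at D28, while TYROBP was listed at 0. CD14, at 0.569 TPM in the Untreated mean, was called higher at D3, D14, D28 and D28WO (1.85, 1.07, 1.48 and 1.12 ± 0.28, adjusted p = 1.3e-04, 0.0146, 8.2e-04 and 0.00824). CD68, CSF1R and ITGAM were not called against Untreated in any of these groups. The change in CD68 was -0.55 ± 0.16 at D3 (adjusted p = 0.0152), -0.45 at D14, 0.07 at D28 and -0.43 in D28WO. Of all genes in U251, 14.3, 5.76, 15.2 and 7.45% were called, in the same order of groups. From D28 to D28WO, where KMO fell, the difference in CD14 was -0.35 ± 0.28 (adjusted p = 0.381). That in CD68 was -0.50 ± 0.16 (adjusted p = 0.0357). The part of the myeloid markers in the KMO rise was not tested.

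HAAO, the dioxygenase that makes quinolinic acid, was near 0 everywhere, at most 0.774 TPM in a U87 library and 0.788 TPM in a U251 library, and listed at 0 in all Untreated libraries of both lines. QPRT, which converts quinolinic acid to nicotinic acid mononucleotide, held its level in U87, between 7.10 and 15.8 TPM over all libraries, with no contrast called (adjusted p = 0.299 to 1). In U251 it fell from 3.31, 3.51 and 4.56 TPM in Untreated to 0.508, 0.832 and 1.14 TPM at D3 (-1.40 ± 0.21, adjusted p = 1.2e-04). It was back at 2.96, 3.59 and 3.94 TPM at D14, which overlapped Untreated, and stood at 1.57, 1.84 and 2.17 TPM at D28 (-0.74 ± 0.21, adjusted p = 0.0122). D28WO held 0.715, 0.772 and 0.941 TPM (-1.40 ± 0.21, adjusted p = 2.0e-04), a range that overlapped D3. Against Untreated, QPRT was the member called lower in U251, at D3 and in D28WO, where IDO1 and WARS1 were called higher. SPN, which shares 38 exon bases with QPRT on the same strand, lay between 0.214 and 1.72 TPM in U251.

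AHR, the ligand-activated transcription factor to which kynurenine binds, divided the lines by level. In U87 it stood at 72.3, 74.6 and 77.2 TPM in Untreated, 65.8 and 74.4 TPM at D3, 85.2 and 90.5 TPM at D14, 81.1, 82.2 and 85.6 TPM at D28 and 94.9, 114 and 120 TPM in D28WO. D28WO was the highest group, 1.47 times Untreated (0.54 ± 0.09, adjusted p = 5.0e-04), under the fold limit. In U251 it was listed between 0 and 0.572 TPM in all 15 libraries. A same-strand protein-coding gene that shares 2373 exon bases with AHR, ENSG00000283321, was also near 0, at most 0.703 TPM in U87 and 0.0377 TPM in U251. An antisense long non-coding RNA, ENSG00000237773, shares 492 exon bases with AHR. It lay between 4.45 and 14.2 TPM in U87 and between 0.0821 and 7.31 TPM in U251.

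The proteins that carry and dimerize with AHR were expressed in both lines. None of the 6 partners and chaperones was called by limma in either line against Untreated, although at an unadjusted p under 0.05 there were 4, 3, 3 and 5 of 6 at D3, D14, D28 and D28WO in U87 and 2, 1, 5 and 4 in U251. Over all genes, 6.23, 2.1, 7.38 and 14.9% were called in U87 and 31.6, 23, 36.4 and 50% had an unadjusted p under 0.05, and in U251 14.3, 5.76, 15.2 and 7.45% were called and 48.3, 33.1, 48.2 and 37.4% had one. ARNT, its DNA-binding partner, stood at 47.7 ± 1.81 TPM in untreated U87 and 47.3 ± 1.75 TPM in untreated U251 (SD, n = 3). Of 9 AHR targets, 6 were tested in U87 and limma called none against Untreated (1, 2, 3 and 1 of 6 at an unadjusted p under 0.05 at D3, D14, D28 and D28WO, beside the U87 shares of all genes just given). CYP1B1 was at 86.6 ± 5.67 TPM in untreated U87 and 98.5 ± 6.52 TPM in D28WO. In U251, 7 were tested, with 1 higher and 1 lower at D3 and D14 and 1 higher at D28 and D28WO, where 14.3, 5.76, 15.2 and 7.45% of all genes were called at D3, D14, D28 and D28WO. CYP1B1 was lower at D3 and D14, at 5.63 ± 0.753 and 5.74 ± 0.798 TPM against 14.1 ± 0.460 TPM (-1.19 ± 0.15 and -1.17 ± 0.15, adjusted p = 2.2e-05 and 9.4e-05). CYP1A1 was higher at D14 and D28, at 1.495 ± 0.129 and 2.34 ± 0.893 TPM against 0.113 ± 0.126 TPM (1.17 ± 0.24 and 1.55 ± 0.24, adjusted p = 0.00361 and 1.6e-04). SLC7A5, counted among these targets but better known as a tryptophan importer, was the gene called higher at D3 and D28WO. In U87, AHRR, the AHR repressor, varied too much between libraries to be read, with 20.6 ± 8.46 TPM in Untreated and 26.4 ± 15.5 TPM in D28WO.

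**Figure D3:**
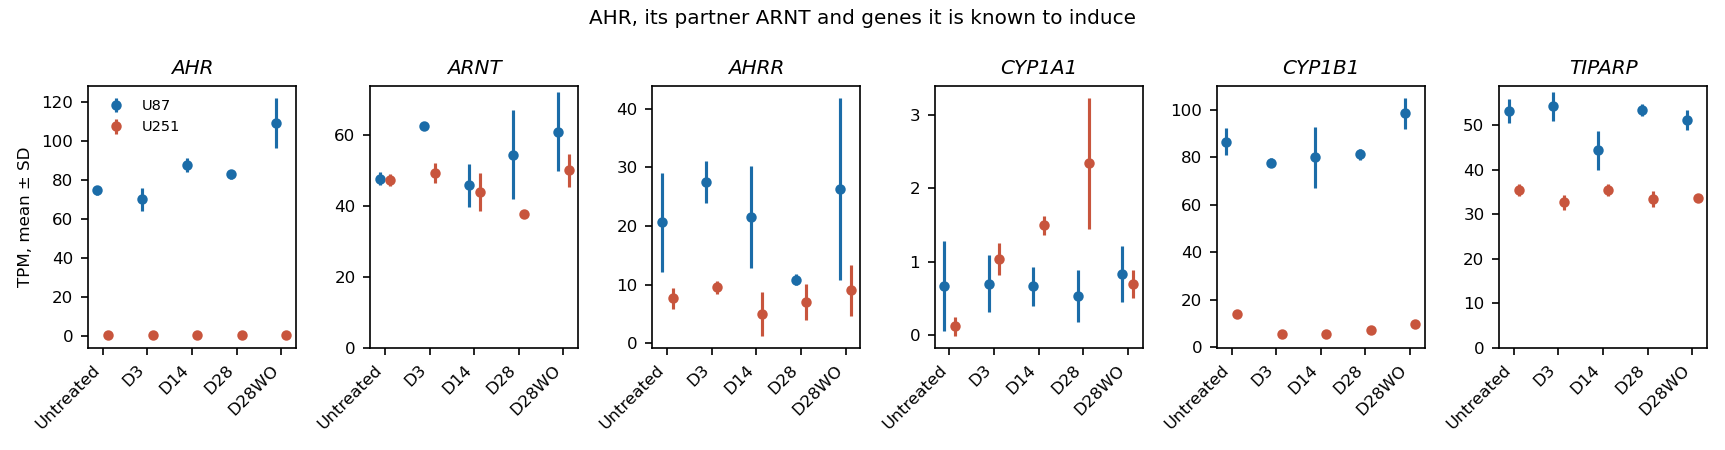
Mean TPM with SD bars by group, on a linear axis of its own for each gene, with U87 in blue and U251 in red. AHR and CYP1B1 read higher in U87, where AHR was 74.7 TPM in Untreated, than in the separately normalized U251 table, while ARNT lies in the same range in both lines.

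WARS1 was among the most abundant members and, like IDO1, was called higher at D3, D28 and D28WO in both lines. In U251 at D14, IDO1 was called and WARS1 missed the fold limit (0.83 ± 0.07), a difference between the genes that was not tested, and D28WO was the highest group for WARS1 and the third for IDO1. The RefSeq table holds 2 start sites for WARS1, 980 bases apart, and both are shown because they differ in interferon-type motifs. Capitals mark a GAS match (TTCNNNGAA), whose first base lies 142 bases upstream of the start, and a match to the core of the interferon-stimulated response element (ISRE: GAAA, any 2 bases, GAAA), 55 bases upstream. The outer window has neither motif on either strand.
WARS1 inner window, chr14:100375328-100375597, minus strand: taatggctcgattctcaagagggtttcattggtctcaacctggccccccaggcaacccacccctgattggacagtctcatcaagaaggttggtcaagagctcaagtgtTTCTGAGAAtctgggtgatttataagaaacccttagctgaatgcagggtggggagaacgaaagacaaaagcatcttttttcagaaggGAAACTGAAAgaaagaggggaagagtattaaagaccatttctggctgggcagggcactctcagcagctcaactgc
WARS1 outer window, chr14:100376308-100376577, minus strand: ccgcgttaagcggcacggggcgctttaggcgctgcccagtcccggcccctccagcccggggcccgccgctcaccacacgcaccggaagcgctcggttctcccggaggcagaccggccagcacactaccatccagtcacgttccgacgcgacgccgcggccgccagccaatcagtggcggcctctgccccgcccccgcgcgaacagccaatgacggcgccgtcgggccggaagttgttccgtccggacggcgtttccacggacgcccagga
Of all 35116 windows, 3.57% hold an ISRE match and 0.439% hold both motifs. Of the 10 members, 8 were searched, with 10 windows in all. IDO1 and IDO2 were not analysed here. Among the 8 members searched, KYNU and WARS1 had a GAS or ISRE match. WARS1 lies on the minus strand at chr14:100333790-100376805 (GRCh38, GENCODE 44).

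In U87, WARS1 stood at 209, 210 and 229 TPM in Untreated and at 224 and 238 TPM at D14, which overlapped. It was at 655 and 664 TPM at D3, at 746, 828 and 860 TPM at D28 and at 1133, 1271 and 1293 TPM in D28WO, with no overlap between these groups. The means were 3.06, 3.76 and 5.71 times that of Untreated (1.61 ± 0.08, 1.90 ± 0.07 and 2.51 ± 0.07, adjusted p = 2.2e-07, 1.3e-08 and 2.0e-09). D28WO was above D28 by 0.60 ± 0.07 (adjusted p = 2.7e-04).

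In U251, WARS1 rose from 134, 140 and 142 TPM to 1251, 1313 and 1351 TPM at D3, and stood at 220, 255 and 267 TPM at D14. It was at 1118, 1172 and 1281 TPM at D28 and 1352, 1405 and 1466 TPM in D28WO, so that D3 and D28 overlapped and the other groups did not. D14 was 0.83 ± 0.07 above Untreated (adjusted p = 2.3e-06), and the means at D3, D28 and D28WO were 9.44, 8.61 and 10.2 times that of Untreated. The difference of D28WO from D28 was 0.24 ± 0.07 (adjusted p = 0.0177). WDR25, which overlaps WARS1 by 287 exon bases on the other strand, reached at most 58.5 TPM in U87 and 57.9 TPM in U251.

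The other 19 cytosolic aminoacyl-tRNA synthetases, which charge tRNAs with the remaining amino acids, changed by less than WARS1 at D3, D28 and D28WO in both lines and at D14 in U251. At D14 in U87, WARS1 lay within their range. Limma called none of the 19 in U87 against Untreated, where 5, 6, 5 and 14 of 19 had an unadjusted p under 0.05 at D3, D14, D28 and D28WO. Over all genes 6.23, 2.1, 7.38 and 14.9% were called and 31.6, 23, 36.4 and 50% had an unadjusted p under 0.05. The median changes of the 19 lay between -0.02 and 0.16, with single genes from -0.51 to 0.79. In U251, 1 was called, YARS1 at D3 (104 to 214 TPM in the means, 1.03 ± 0.05, adjusted p = 3.4e-09), where 14.3% of all genes were called, and the medians lay between 0.12 and 0.32. At D14, D28 and D28WO limma called none of the 19, against 5.76, 15.2 and 7.45% of genes. An unadjusted p under 0.05 was found for 17, 8, 13 and 16 of 19 at D3, D14, D28 and D28WO, beside 48.3, 33.1, 48.2 and 37.4% of genes. WARS1 made up 6.59 ± 0.612% of the summed TPM of the 20 synthetases in untreated U87. The 2 libraries at D3 held 17.2 and 17.3% and the 2 at D14 held 6.93 and 7.04%, with 20.6 ± 0.693% at D28 and 25.7 ± 1.19% in D28WO. In U251 the share went from 5.69 ± 0.256% to 30.4 ± 1.53%, 8.89 ± 0.429%, 30.3 ± 1.53% and 31.9 ± 0.823% at D3, D14, D28 and D28WO (SD, n = 3). WARS2, the mitochondrial tryptophanyl-tRNA synthetase, changed by -0.09 to 0.25 in U87 and -0.01 to 0.05 in U251 and was not called by limma (unadjusted p under 0.05 in 0 of 4 comparisons with Untreated in each line).

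**Figure D4:**
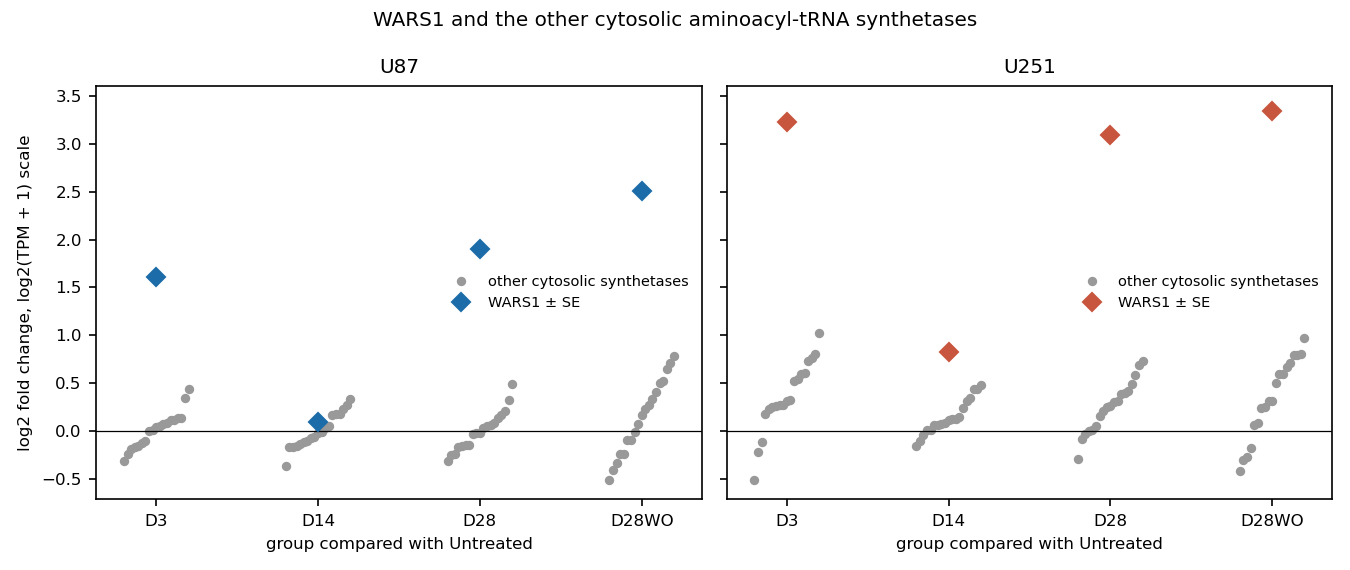
Log2 fold change against Untreated of WARS1 (diamonds, with SE bars smaller than the symbol) and of the 19 other cytosolic synthetases (grey points, in order of size) in U87 and U251. WARS1 lies above all 19 at D3, D28 and D28WO in both lines and at D14 in U251, and within their range at D14 in U87.

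Between successive time points up to D28, IDO1 and WARS1 accounted for the calls in U87. Both fell from D3 to D14 (2 of 8 members, 2.63% of genes) and rose from D14 to D28 (2 of 8, 2.12%). Limma called none of the 8 members between D28 and D28WO in U87 (3 at an unadjusted and 3 at an adjusted p under 0.05, KYNU, AHR and WARS1, where 31% of genes had an unadjusted p under 0.05 and 5.53% were called). In D28WO, 3 members, IDO1, KYNU and WARS1, were higher than at D14 (9.69%). In U251, from D3 to D14, IDO1 and WARS1 fell and QPRT rose (6.49% of genes), and from D14 to D28, IDO1, IDO2, KMO and WARS1 rose (5.84%). From D28 to D28WO, TDO2, KYNU and KMO fell (3 of 8 members, 9.26% of genes) while IDO1 and WARS1 were not called. Against D14, D28WO was higher in IDO1 and WARS1 and lower in TDO2, KMO and QPRT (7.17%). By the adjusted p alone, the counts for D14 against D3, D28 against D14, D28WO against D28 and D28WO against D14 were 2, 2, 3 and 4 of 8 in U87, beside 4.79, 4.06, 18.3 and 25.9% of genes, and 4, 6, 7 and 7 of 8 in U251, beside 25.5, 20.8, 29.1 and 26.4%. These comparisons share libraries with each other and with those against Untreated.

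Tryptophan enters the cell mainly through the heterodimer of SLC7A5 and SLC3A2. Of 7 import genes, 6 were tested in each line, and 1, 1, 1 and 2 were higher at D3, D14, D28 and D28WO in U87 and 3, 1, 3 and 1 in U251, with none lower. Over all genes, 6.23, 2.1, 7.38 and 14.9% were called in either direction in U87 and 14.3, 5.76, 15.2 and 7.45% in U251. SLC7A5 stood at 85.6 ± 1.52 TPM in untreated U87 and 163 ± 9.53 TPM in D28WO (0.92 ± 0.12, adjusted p = 1.1e-04), below the fold limit. In U251 it went from 61.8 ± 4.43 TPM to 161 ± 4.94 TPM at D3 and 184 ± 6.45 TPM in D28WO (1.37 ± 0.08 and 1.56 ± 0.08, adjusted p = 2.2e-08 and 7.9e-09). SLC3A2 rose in U251 from 133 ± 3.16 TPM to 322 ± 13.2 TPM at D3 and 275 ± 19.6 TPM at D28 (1.27 ± 0.06 and 1.04 ± 0.06, adjusted p = 1.2e-09 and 8.4e-09). SLC43A2, a lower-affinity carrier of large neutral amino acids, was the import gene called at every time point in U87, from 2.81 ± 0.643 TPM in Untreated to 10.8 ± 2.42 TPM at D28 (1.63 ± 0.24, adjusted p = 6.8e-04). It was also called in U251 at D14 and D28 (1.36 ± 0.14 and 1.07 ± 0.14, adjusted p = 1.9e-05 and 4.5e-05). SLC43A1, a related carrier, showed the largest change of the list in U251, from 1.84 to 3.91 TPM in Untreated to 12.6 to 14.4 TPM at D3 and 8.66 to 9.54 TPM at D28 (1.92 ± 0.27 and 1.40 ± 0.27, adjusted p = 7.3e-05 and 0.00104). In U87 it was called in D28WO (1.07 ± 0.30, adjusted p = 0.0128), with libraries at 9.80 to 12.01 TPM against 3.32 to 7.99 TPM.

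None of the 4 kynurenine aminotransferases (KYAT1, KYAT3, AADAT and GOT2), which make kynurenic acid, was called by limma in either line against Untreated (1, 1, 2 and 2 of 4 at an unadjusted p under 0.05 at D3, D14, D28 and D28WO in U87, and 2, 1, 3 and 0 in U251). In U87, 2.1 to 14.9% of all genes were called and 23 to 50% had an unadjusted p under 0.05, and in U251 5.76 to 15.2% and 33.1 to 48.3%. The nearest to the limit was KYAT3 in U87 D28WO (19.5 to 37.9 TPM in the means, 0.93 ± 0.17, adjusted p = 0.00126). Of 8 enzymes of the other tryptophan routes, 5 were tested in U87, with 1, 0, 1 and 1 higher at D3, D14, D28 and D28WO, and 7 in U251, with 2, 0, 2 and 1 higher and 1, 0, 1 and 0 lower, beside 6.23, 2.1, 7.38 and 14.9% of all genes called in U87 and 14.3, 5.76, 15.2 and 7.45% in U251. IL4I1, a secreted amino acid oxidase that forms the AHR ligand precursor indole-3-pyruvate, was called in both lines at D28. It went from 3.13 ± 1.23 to 9.95 ± 1.06 TPM in U87 (1.45 ± 0.30, adjusted p = 0.0055) and from 6.48 ± 2.15 to 29.9 ± 5.56 TPM in U251 (2.07 ± 0.23, adjusted p = 7.3e-06). In U251 it was also called in D28WO (1.17 ± 0.23, adjusted p = 0.00154). In U87, AANAT, an enzyme of melatonin synthesis, was called higher at D3 and in D28WO, with means of 5.30 and 6.30 TPM against 1.22 TPM (1.53 ± 0.39 and 1.73 ± 0.35, adjusted p = 0.0227 and 0.00214). In U251 the tryptophan hydroxylases TPH1 at D3 (1.10 ± 0.31, adjusted p = 0.0105) and TPH2 at D3 and D28 (1.49 ± 0.52 and 1.91 ± 0.52, adjusted p = 0.0349 and 0.00975) were called higher, and MAOB, a monoamine oxidase, was called lower at D3 and D28 (-1.16 ± 0.27 and -1.02 ± 0.27, adjusted p = 0.00313 and 0.00732), with means at or under 5.56 TPM.

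At the NAD end, the pathway's own amidating enzyme NADSYN1 did not reach the fold limit in either line against Untreated. In U87 its mean was 111 TPM in Untreated and higher in each treated group, with 143 TPM at D3, 185 TPM at D14, 179.6 TPM at D28 and 154 TPM in D28WO (0.37, 0.74, 0.69 and 0.47 on the log2 scale, adjusted p = 0.0286, 0.00448, 3.0e-04 and 0.00147). In U251 it lay below Untreated in D28WO (-0.35 ± 0.10, adjusted p = 0.0166). Of 8 genes, 7 were tested, and those called against Untreated were NAMPT and NAPRT, which feed NAD from nicotinamide and nicotinic acid rather than from tryptophan. These were 1, 0, 0 and 2 of 7 at D3, D14, D28 and D28WO in U87, beside the 6.23, 2.1, 7.38 and 14.9% of all genes called, and 1, 1, 1 and 0 of 7 in U251, beside 14.3, 5.76, 15.2 and 7.45%. NAMPT in U87 stood at 249 ± 26.7 TPM in Untreated, 453 and 644 TPM at D3, 241 ± 15.3 TPM at D14 (n = 2), 448 ± 32.1 TPM at D28 and 1124 ± 105 TPM in D28WO. The D3 and D28WO rises were called (1.12 ± 0.14 and 2.17 ± 0.12, adjusted p = 3.1e-04 and 2.5e-07), and D28WO was above D28 by 1.32 ± 0.12 (adjusted p = 1.0e-04). In U251, NAMPT was 115 ± 3.30 TPM in Untreated and at most 180 ± 6.58 TPM in the mean at D28. NAPRT was called in U251 at D3, D14 and D28 (20.5 ± 5.39, 15.6 ± 3.38 and 20.7 ± 4.44 TPM against 7.06 ± 1.49 TPM) and in U87 D28WO (28.7 ± 2.55 against 14.5 ± 6.59 TPM).

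Uncharged tRNA is sensed by the kinase GCN2 (gene EIF2AK4), which raises translation of ATF4 and so the transcription of amino acid stress genes. Of 11 genes of this response, 2, 0, 2 and 6 were higher at D3, D14, D28 and D28WO in U87 and 7, 3, 6 and 7 in U251, with none lower, where 6.23, 2.1, 7.38 and 14.9% of all genes in U87 and 14.3, 5.76, 15.2 and 7.45% in U251 were called in either direction. Their median change was 0.35, 0.30, 0.52 and 1.32 in U87 and 1.5, 0.35, 1.32 and 1.55 in U251, beside medians of all genes of 0.20, 0.15, 0.19 and 0.25 and of 0.13, 0.10, 0.16 and 0.02. EIF2AK4, GCN1, EIF2S1 and ATF4 themselves were not called, and the genes called were transcripts downstream. CHAC1, a glutathione-degrading enzyme, stood at 28.1, 78.1, 99.6 and 205 TPM in the means of Untreated, D3, D28 and D28WO in U87 (2.84 ± 0.22 in D28WO, adjusted p = 2.9e-06) and at 20.3, 159, 147 and 177 TPM in U251 (3.07 ± 0.12 in D28WO, adjusted p = 2.4e-10). ASNS, the asparagine synthetase, went from 122 to 425 TPM in U87 D28WO (1.80 ± 0.16, adjusted p = 8.1e-06) and from 100 to 310 TPM at D3 in U251 (1.63 ± 0.10, adjusted p = 2.2e-08). In U87, TRIB3, a pseudokinase induced by ATF4, was called at D3, D28 and D28WO (1.26, 1.40 and 2.57), and DDIT3, SESN2 and PSAT1 in D28WO (1.60, 1.83 and 1.32). In U251, DDIT3 and SESN2 were called at every time point (1.10 to 1.64 and 1.09 to 2.60), TRIB3 and PSAT1 at D3, D28 and D28WO (1.42 to 1.67 and 1.41 to 1.86) and PHGDH, which opens serine synthesis, at D3 and in D28WO (1.02 and 1.10). In U87, ASNS, TRIB3 and CHAC1 were also higher in D28WO than at D28 (1.01 ± 0.16, 1.17 ± 0.24 and 1.08 ± 0.22, adjusted p = 0.00161, 0.00674 and 0.00681). This list also responds to other stresses, and no amino acid was measured.

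**Figure D5:**
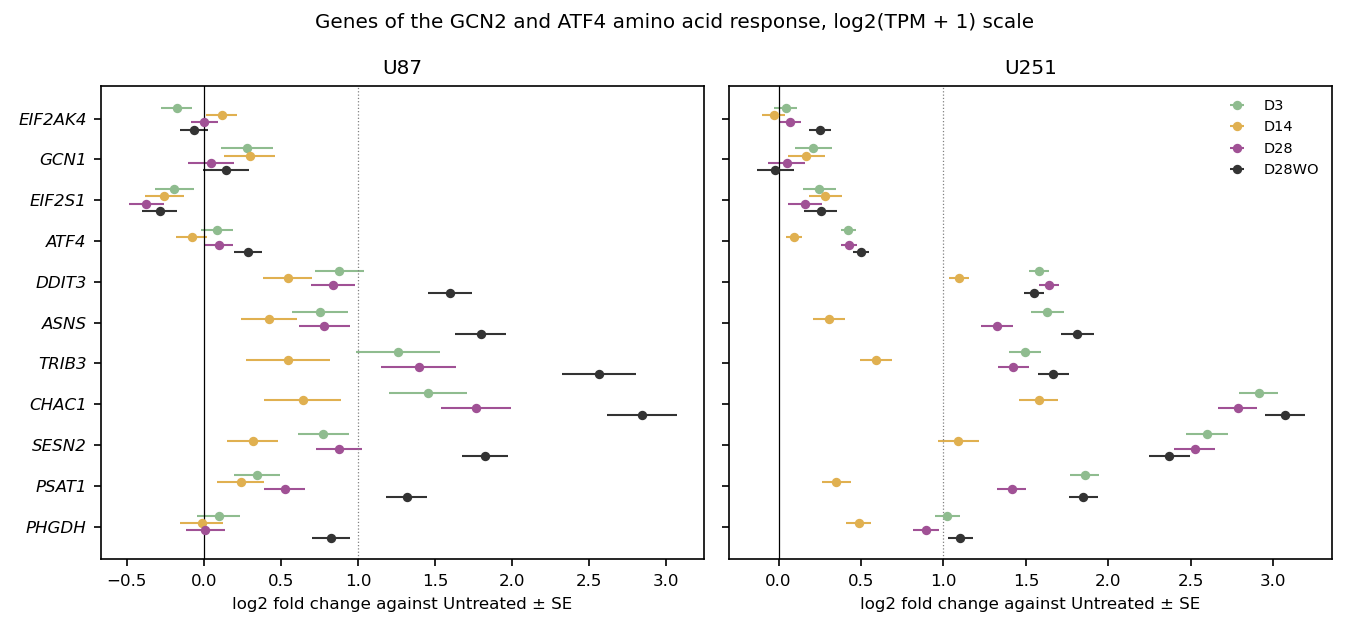
Log2 fold change against Untreated with SE bars for 11 genes of the GCN2 and ATF4 response, with U87 on the left and U251 on the right, and a dotted line at the fold limit of 1. The 4 upstream genes at the top stay under the limit, and CHAC1 shows the largest change in each line, 2.84 in U87 and 3.07 in U251, both in D28WO.

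The genes whose log2(TPM + 1) ran most closely with IDO1 over the 13 U87 libraries were APOL1, BATF2, IFIT3, IFIT2 and RTP4 (Pearson's r = 0.994 to 0.998). Over the 15 U251 libraries they were HLA-DMA, TMEM140, PIK3AP1, LGALS17A and GBP1 (r = 0.994 to 0.996). For WARS1 they were KLHDC7B, GJD3, GCH1, TRIM38 and GBP3 in U87 (r = 0.989 to 0.990) and CD2AP, GBP5, LGALS17A, ENSG00000286548 and CIITA in U251 (r = 0.991 to 0.995). For KYNU they were led by LINC02806 in U87 (r = 0.985) and ZNF273 in U251 (r = 0.989). The libraries fall into 5 groups, so these values mostly describe group means, and with Spearman's correlation 0 of the 5 remained in 5 of these 6 lists and 1 of 5 for KYNU in U251.

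Among the other members, the positions given here in GRCh38 (GENCODE 44) are chr4:155854738-155920406 for TDO2, chr17:78187358-78207702 for AFMID, chr2:142877657-143055833 for KYNU, chr1:241532134-241595642 for KMO, chr16:29663279-29698699 for QPRT and chr7:16916359-17346152 for AHR, all on the plus strand, and chr2:42767089-42792593 for HAAO on the minus strand. All values are for whole genes and do not separate transcripts, start sites or exons.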

How the data were processed

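Bulk RNA of U87-MG and U251-MG cells was sequenced by the study with a TruSeq RNA kit as paired-end reads. Per the labels and the study's methods, the authors trimmed reads with Trim Galore, aligned them with STAR to GRCh38 and counted them with featureCounts. The deposited values are TPM in 1 table for each line, with the same total in all libraries, and how they were computed is not given. A supplementary sheet of the study calls them CPM, but the lowest values fall with exon length as TPM do (Spearman's rho = -0.829 and -0.857). TPM keep no depth, so no floor or interval of counting error is given. In the U87 table, 2 columns share a name and were not used.

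Testing was limited to genes averaging 0.5 TPM or more over the libraries of a line, 22918 in U87 and 23667 in U251. They were fitted with limma 3.58.1 (R 4.3.3; lmFit and eBayes with trend) on log2(TPM + 1), 5 groups in 1 fit without covariates, in 8 contrasts per line. The tests were checked on simulated data. P-values were adjusted by Benjamini-Hochberg over all genes tested, and a call needed an adjusted p under 0.05 and a log2 fold change over 1 in size. They measure the spread between cultures of 1 line. The members and gene lists were chosen with earlier results of these data known. All members were named, other pathway genes by list when called against Untreated or nearest to a call, and the 5 genes with the highest Pearson correlation for IDO1, WARS1 and KYNU. Alternatives changed the pseudocount, filter, normalization, samples, block, weights, call rule and libraries. Motifs were searched on both strands of the RefSeq promoter windows.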

Additional observations from a re-analysis of the deposited data

Results flagged for a closer look

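TDO2 in D28WO lay above Untreated in U87 and below it in U251, and neither difference was called. Its 3 U87 libraries in D28WO (33.4 to 40.4 TPM) all lay above the 3 Untreated libraries, with a log2 fold change of 0.61, and its 3 U251 libraries (3.67 to 5.19 TPM) all lay below theirs, with a log2 fold change of -0.35. The difference between the lines was not tested, because the tables were normalized separately, and the U251 value alone had an adjusted p of 0.263. This was 1 of 28 pairs of member and time point tested in both lines.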

How the results depend on the processing

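Of 45 called changes of members, 39 stayed past the threshold under all alternatives run, and of 617 values under alternatives 602 stayed on their side of it and 15 lost the call (KYNU, KMO and TDO2, with values given beside them), all in the same direction. Of 234 counts under alternatives, 226 stayed within 1.5 times the main count. With the adjusted p as the only criterion the counts were 4 in U87 at D3, 5 in U87 D28WO, 5 in U251 at D14 and 5 in U251 D28WO against Untreated, and 3 in U87 and 7 in U251 for D28WO against D28, beside 16.7, 42, 21.2, 27.7, 18.3 and 29.1% of all genes. Quantile normalization gave 1 in U87 for D28WO against D28, and a pseudocount of 0.1 gave 5 in U251 D28WO against Untreated. With the replicate block all 16 counts equalled those without it, for example 5 of 8 members in U251 at D3. Replicate numbers did not track a pairing of the samples. Deviations of same-numbered libraries from their group means correlated at -0.058 to 0.047 in U87 and -0.037 to 0.048 in U251, and 4 of 13 and 5 of 15 libraries correlated best with their own number. The methods describe cultures split at D14 into continued exposure and washout, and a pairing of D28 with D28WO in another order was not tested. For the genes most like IDO1, WARS1 and KYNU, Spearman's correlation kept 0, 0 and 0 of 5 in U87 and 0, 0 and 1 in U251. The depth behind a TPM is unknown, so members listed at 0 have no upper limit.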
